A study of Homo sapiens with 6 samples.

Results

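The axon guidance ligands and receptors are 68 of the 23368 distinct genes in the table of HepG2 messenger RNA values. These members were chosen by symbol, with earlier results of these data known. They are 20 semaphorins with their receptors, 9 plexins and 2 neuropilins, then 4 netrins with 4 UNC5 receptors, 3 SLIT ligands with 4 ROBO receptors, and 8 ephrins with 14 EPH receptors. HepG2 is an established human liver cancer line, and its total RNA was sequenced after stable delivery of a pLKO lentiviral hairpin. The control group (EV, replicates a, b and c) carried a non-targeting hairpin, and the compared group (shCHROME, replicates a, b and c) carried a hairpin against all variants of the long noncoding RNA CHROME. Both groups therefore share viral transduction and stable hairpin expression, and 1 hairpin construct represents the knockdown. CHROME itself is not analysed here, so no value for the extent of its knockdown stands beside the results.

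Axon guidance genes were named for steering growing nerve fibres, but epithelial, endothelial and tumour cells use the same pairs to set adhesion, shape and movement. Semaphorins bind plexins, which act on small GTPases inside the cell, and the secreted class 3 semaphorins mostly need a neuropilin to hold them on the plexin. Netrins act through UNC5 receptors and DCC or neogenin, and UNC5 receptors are also known as dependence receptors. SLIT proteins bind ROBO receptors, and ephrins are membrane-bound ligands of EPH receptor tyrosine kinases, so that signals run between touching cells and in both of them.

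In the literature CHROME binds the microRNAs miR-27, miR-33 and miR-128, so the seeds of these microRNAs were searched for in the members. Their mature sequences (RefSeq, GRCh38.p14) are printed with the seed, bases 2 to 8, in capitals, because a 3' untranslated region pairs with the seed.
hsa-miR-27a-3p: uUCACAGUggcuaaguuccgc
hsa-miR-27b-3p: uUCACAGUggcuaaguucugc
hsa-miR-33a-5p: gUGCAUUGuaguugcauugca
hsa-miR-33b-5p: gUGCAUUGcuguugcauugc
hsa-miR-128-3p: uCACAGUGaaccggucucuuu
The matching letters in a message are ACTGTGA for miR-27, CAATGCA for miR-33 and CACTGTG for miR-128, searched on the message strand only. The first and the last of these share ACTGTG, so a run that holds that stretch between a leading C and a trailing A counts for both.

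Of the 11 members that changed in shCHROME cells, 5 held such a match in the longest annotated 3' untranslated region (GENCODE release 29), at 6 positions in all. The sites are shown in capitals with up to 10 bases on each side, because they are the matches in the members that moved.
SEMA3A, miR-27: ccatttctagACTGTGAgctccttgag
PLXND1, miR-27: tcatgcaccaACTGTGAatagctgccg
PLXND1, miR-128: gcacggcctgCACTGTGcccacccact
PLXNB3, miR-128: caaagccaggCACTGTGcccagcagtg
PLXNA2, miR-33: gcccttaactCAATGCAtctacctggc
NTN4, miR-33: agctcatttgCAATGCActtgtataca
Of the 3 members that rose, 1 held a site (SEMA3A), as did 4 of the 8 that fell (NTN4, PLXNA2, PLXNB3 and PLXND1) and 14 of the 32 that did not pass the test. Over all tested genes with an annotated region, 17.6% held the miR-27 letters, 9.23% the miR-33 letters and 21.6% the miR-128 letters, against 10, 7 and 9 of the 43 tested members. The percentages are per microRNA, and the share of all tested genes with any of these sites was not worked out. A match is a description of the sequence and not a measured binding site, and long regions hold more matches by length alone. The region was 5594 bases long in SEMA3A and 307 in PLXNB3.

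Recovered reads ran from 29188213 to 35429420 per library in EV and from 29477352 to 33911426 in shCHROME. Whether a group's libraries come from different cultures is not stated, and p-values here cover only the library-to-library spread, which may be technical. Of 10 hepatocyte markers all were measured, which fits the label, and 6 of them fell in shCHROME, namely AFP, ALB, APOA1, TTR, TF and SERPINA1. The call of ALB ended without the filter, with the replicate block, and when EV replicate a or EV replicate c was left out (limma adjusted p at most 0.141). Those of TF and SERPINA1 ended when EV replicate c or replicate c of shCHROME was left out (at most 0.0598 and 0.0521). APOB, among the 3 most abundant with ALB and APOA1, had a log2 fold change of -0.04 (limma adjusted p = 0.859). Their summed level was 1415014 to 1535969 normalized counts in EV and 1134211 to 1330321 in shCHROME.

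Among the 68 members, 43 passed the filter on low reads and were tested, and 25 did not pass it, with at most 36 reads over the 6 libraries. At an adjusted p under 0.05 (limma on log2(value + 1), Benjamini-Hochberg over all 14598 tested genes), 3 members were higher in shCHROME (SEMA3A, UNC5B and ROBO1) and 8 were lower (PLXNA2, SEMA6C, PLXNB3, SEMA3B, NTN4, SEMA4D, NRP1 and PLXND1). Called genes were 10.5% of all tested genes, 3.64% higher and 6.87% lower, and 25.6% of the tested members. The median log2 fold change was -0.05 over the tested members and 0.01 over all tested genes. The groups did not overlap in 14 of the 43 tested members (32.6%), against 28.0% of all tested genes. Lower genes were 65.3% of all calls, and 42.9% with libraries scaled to their totals. With that scaling, 5 members were higher and 7 lower, since PLXNA1 (adjusted p = 0.0406) and EPHA1 (0.0339) passed and PLXND1 (0.103) did not. The number of lower members was 5 without EV replicate a and 5 without EV replicate c, and the number of higher members was 5 without shCHROME replicate a.

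**Figure D1:**
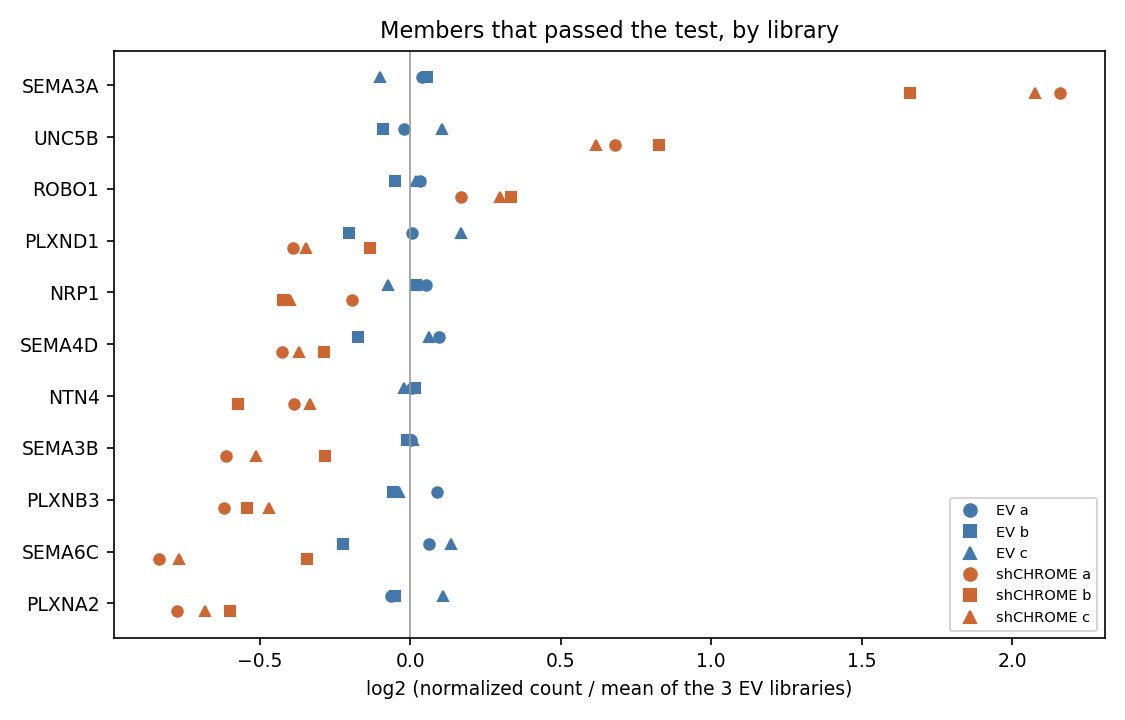
Normalized count of the 11 called members in each library, as log2 of its ratio to the mean of the 3 EV libraries (x axis, 1 row per gene; blue EV, orange shCHROME, marker shape for the replicate letter). The shCHROME libraries lie to the right of all EV libraries for SEMA3A, UNC5B and ROBO1 and to the left for the others, except PLXND1, where EV replicate b (1771) lies below shCHROME replicate b (1855).

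SEMA3A had the largest change of the 43 tested members. It encodes a secreted class 3 semaphorin that repels axons and endothelial cells through neuropilin-1 and A-type plexins. Its normalized count was 66.9, 67.64 and 60.74 in EV replicates a, b and c and 290.5, 205.7 and 274.2 in shCHROME replicates a, b and c. Every shCHROME library was at least 3 times as high as any EV library, and replicate b was the lowest of its group. From a mean of 65.09 ± 3.79 it rose to 256.8 ± 45 (SD, 3 libraries each), a log2 fold change of 1.95 (SE 0.16, 95% interval 1.61 to 2.29, limma adjusted p = 4.01e-07). The adjusted p stayed at or below 4.44e-05 under all 16 alternatives.

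SEMA3B, a related secreted semaphorin known as a candidate tumour suppressor, moved the other way. Its normalized count was 14890, 14779 and 14959 in the EV libraries and 9735, 12233 and 10418 in the shCHROME libraries. The EV libraries lay close together, and all shCHROME libraries lay below them, with replicate b the highest of the 3. The fall had a log2 fold change of -0.47 (SE 0.07, limma adjusted p = 0.000211). In the annotation the microRNA gene MIR6872 shares exon sequence with SEMA3B on the same strand, and reads of the shared part cannot be assigned to either gene here. SEMA3B remained the main class 3 semaphorin, with 84.1% ± 0.398 of the summed class 3 level per length in EV and 77.6% ± 2.07 in shCHROME (SD, n = 3 per group). SEMA3A supplied 0.147% ± 0.00875 of that level in EV and 0.75% ± 0.191 in shCHROME. The summed class 3 count was 18750 ± 113 normalized counts in EV and 15136 ± 1261 in shCHROME, with groups that did not overlap, and its exact two-sided permutation p of 0.1 is the smallest that 3 against 3 libraries allow.

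The other tested class 3 semaphorins, SEMA3F and SEMA3G, did not pass the test. SEMA3F, which acts mainly through neuropilin-2, had a log2 fold change of 0.05, with a 95% interval of -0.08 to 0.19. SEMA3G had 0.135 (0.003 to 0.266, limma adjusted p = 0.194), with all 3 shCHROME libraries (2218 to 2450) above all EV libraries (2078 to 2160). SEMA3C, SEMA3D and SEMA3E had 15, 2 and 19 reads over the 6 libraries and were not tested. A low value in this table does not show that a gene is silent, since IRS2 and APOC2, which liver cells commonly express, are listed at 0 in all 6 libraries.

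Among the membrane semaphorins, SEMA4D and SEMA6C fell and the other 9 of 11 tested did not pass the test. That is 18.2% called, against 10.5% of all tested genes. SEMA4D is the ligand of plexin-B1 and signals to neighbouring cells or, once shed, at a distance. Its normalized count was 1163, 966.2 and 1138 in EV and 809.8, 892.2 and 842.9 in shCHROME, and EV replicate b was the nearest to the shCHROME group. The log2 fold change was -0.36 (SE 0.08, limma adjusted p = 0.00979). Leaving out EV replicate a gave an adjusted p of 0.0608 and leaving out EV replicate c one of 0.0577, which end the call. SEMA6C, a transmembrane semaphorin, had 173.9, 142.6 and 183.2 normalized counts in EV and 93.4, 131.3 and 97.79 in shCHROME. The groups did not overlap, although EV replicate b and shCHROME replicate b lay close together. Its log2 fold change was -0.64 (SE 0.17, limma adjusted p = 0.0184). It did not pass when EV replicate a (0.0665), EV replicate c (0.0892) or, in the other group, replicate c (0.0859) was left out.

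SEMA6B was the most abundant membrane semaphorin, with 3638 ± 201 normalized counts in EV and 3676 ± 261 in shCHROME (SD, n = 3 per group). The intervals of the 9 uncalled membrane semaphorins all included 0. SEMA4A was uneven in shCHROME, with 26.15, 65.13 and 78.66 normalized counts against 37.91, 38.39 and 46.8 in EV. Its replicate a lay below all EV libraries and its replicates b and c above them, and without shCHROME replicate a the gene was called higher (log2 fold change 0.80, limma adjusted p = 0.0397). SEMA5B and SEMA6D had 3 reads and 1 read and were not tested.

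Plexins are the receptors that turn semaphorin binding into a GTPase signal. All 9 were tested, 3 fell, none rose, and their median log2 fold change was -0.20. Over all tested genes 6.87% were lower and 3.64% higher, with a median of 0.01. PLXNA2, a receptor for class 3 and class 6 semaphorins, had 603.2, 608.8 and 681.1 normalized counts in EV and 368.9, 416.7 and 393.3 in shCHROME. All shCHROME libraries lay far below the lowest EV library. The fall was 1.6-fold, a log2 fold change of -0.68 (SE 0.09, limma adjusted p = 0.000113), and it was called under all 16 alternatives (adjusted p up to 0.00179). PLXNB3, a receptor for semaphorin 5A, had 541.9, 489.9 and 496.9 normalized counts in EV and 331.6, 349.5 and 367.8 in shCHROME. The groups were well apart, with a log2 fold change of -0.54 (SE 0.10, limma adjusted p = 0.00121). In the annotation PLXNB3 shares exon sequence with SRPK3 on the same strand, which had a log2 fold change of -0.33 (adjusted p = 0.388) on 469 reads, and reads of the shared part cannot be assigned to either gene here.

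PLXND1, the endothelial receptor of semaphorin 3E, was the weakest of the calls. Its normalized count was 2047, 1771 and 2291 in EV and 1556, 1855 and 1601 in shCHROME, so the groups overlapped at replicate b. The log2 fold change was -0.28 (SE 0.09, limma adjusted p = 0.0457). The call was lost under 8 of 16 alternatives, among them the replicate block (adjusted p = 0.0957) and leaving out EV replicate a (0.12), leaving out EV replicate c (0.239), and leaving out replicate a (0.104) or replicate c (0.179) of shCHROME. The authors' deposited table gives it an adjusted p of 0.159, and in that table the other 10 called members also pass. The mean per gene in that table was not taken over these 6 libraries alone, so its p-values may rest on another set of libraries.

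The most abundant plexins did not pass the test. PLXNB2, the highest of them per length, had 19564, 17774 and 19968 normalized counts in EV and 18269, 20466 and 18677 in shCHROME. The groups lay over each other, and the log2 fold change was 0.00 (95% interval -0.13 to 0.13). PLXNB1, the SEMA4D receptor, had one of -0.12 with an interval of -0.24 to 0.001. PLXNA1 had 0.16 (0.03 to 0.30, limma adjusted p = 0.117), with all shCHROME libraries (3895 to 4463) above all EV libraries (3506 to 3883). PLXNA3 had -0.20 (-0.40 to -0.01, limma adjusted p = 0.19), PLXNA4 -0.32 and PLXNC1, the SEMA7A receptor, -0.05, each with groups that overlapped. The summed plexin count was 38035 ± 1972 in EV and 36723 ± 2197 in shCHROME (SD, n = 3 per group, exact two-sided permutation p = 0.4).

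NRP1 encodes neuropilin-1, the co-receptor that holds SEMA3A on A-type plexins and that also binds vascular endothelial growth factor. Its normalized count was 3784, 3693 and 3466 in EV and 3192, 2724 and 2765 in shCHROME. All shCHROME libraries lay below all EV libraries, and shCHROME replicate a was the nearest to them. NRP1 fell 1.26-fold, a log2 fold change of -0.34 (SE 0.07, limma adjusted p = 0.00329, at most 0.0321 over the 16 alternatives). NRP2 was far lower, with 25.37 ± 5.07 normalized counts in EV and 25.4 ± 11.2 in shCHROME (SD, n = 3 per group). The annotation places the noncoding gene AL121748.2 on the opposite strand of NRP1 exons, and without knowledge of strand use in the counting its reads cannot be told apart from those of NRP1. Among the other tested members, opposite-strand genes also overlap exons of NRP2, SEMA4G, SEMA5A, SEMA6A, PLXNA3, SLIT3 and EFNB2, with the same limit.

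**Figure D2:**
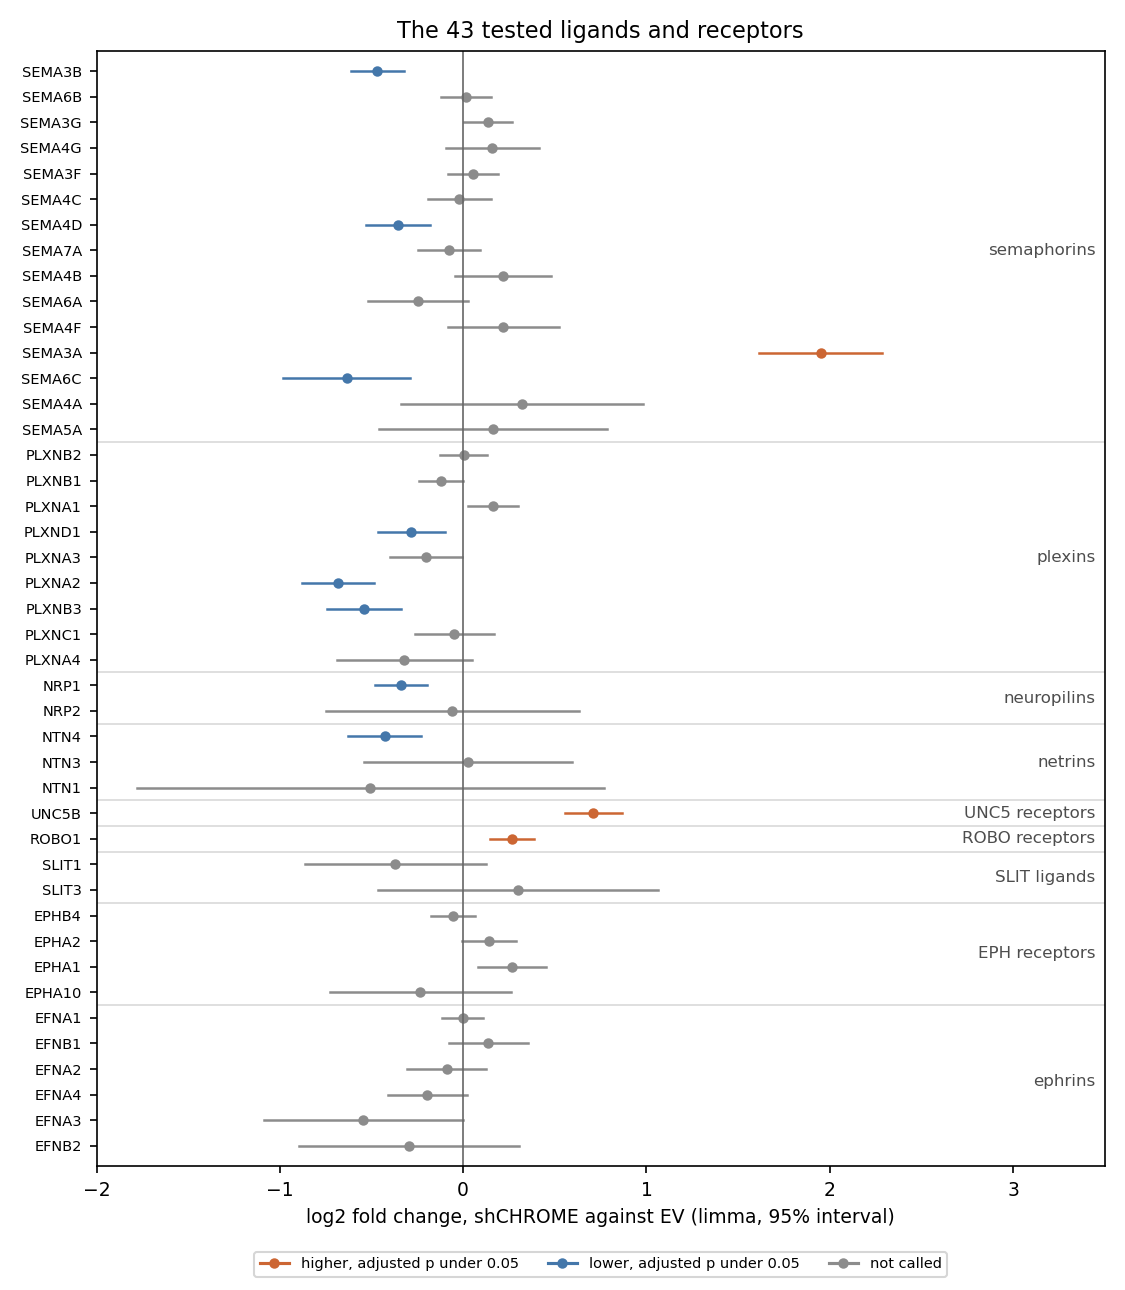
Log2 fold change of the 43 tested members, shCHROME against EV, with its 95% interval from limma (x axis), grouped by family and ordered by mean normalized count within each. SEMA3A at 1.95 stands to the right, with UNC5B and ROBO1 also above 0, and the 8 lower members lie to the left.

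In the netrin system the receptor gene UNC5B rose and the ligand gene NTN4 fell, and NTN1 and NTN3 did not pass the test. UNC5B, a netrin receptor that restrains endothelial sprouting, had 1280, 1219 and 1399 normalized counts in EV and 2080, 2302 and 1994 in shCHROME. The lowest shCHROME library was well above the highest EV library. UNC5B rose 1.63-fold, a log2 fold change of 0.71 (SE 0.07, 95% interval 0.55 to 0.86, limma adjusted p = 5.81e-06, at most 0.000199 over the 16 alternatives). The other UNC5 genes, UNC5A, UNC5C and UNC5D, had 4, 2 and 4 reads and were not tested, so UNC5B made up nearly all UNC5 reads.

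NTN4, a netrin of basement membranes, had 527.4, 532 and 517.8 normalized counts in EV and 402.6, 353.6 and 417.7 in shCHROME. The EV libraries lay close together and all shCHROME libraries below them. NTN4 fell 1.35-fold, a log2 fold change of -0.43 (SE 0.10, limma adjusted p = 0.00709). NTN1, the founding netrin and the main UNC5 ligand, was near the filter with 57 reads in all, and its shCHROME values of 1.868, 6.203 and 20.2 spanned the EV values of 6.399 to 12.94. Its interval of -1.78 to 0.77 leaves a wide range of changes undetectable at this depth. NTN3 had 0.03 on the same scale (-0.54 to 0.59), and NTN5 had 7 reads.

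ROBO1, the receptor through which SLIT proteins repel migrating cells, was the only ROBO gene tested. Its normalized count was 10299, 9713 and 10199 in EV and 11331, 12702 and 12380 in shCHROME. All shCHROME libraries were above all EV libraries, with replicate a the lowest of the 3. The log2 fold change was 0.27 (SE 0.06, limma adjusted p = 0.00536), and its adjusted p reached 0.0422 over the 16 alternatives. ROBO2, ROBO3 and ROBO4 had 1, 16 and 4 reads. The ligands were scarce too: SLIT1 had 57.98, 39.31 and 56.75 normalized counts in EV and 39.23, 36.19 and 41.46 in shCHROME, with a log2 fold change of -0.37 (95% interval -0.86 to 0.12). SLIT3 had 0.30 (-0.46 to 1.06) and SLIT2 had 19 reads. In the annotation SLIT1 shares exons on the same strand with ARHGAP19-SLIT1, so its reads are uncertain.

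No ephrin and no EPH receptor was called, 0 of 6 and 0 of 4 tested. With 10.5% of all tested genes called, a count of 0 in so few genes does not set these families apart. They hold some of the most abundant members. EPHB4, an ephrin-B2 receptor, had 7402, 7156 and 7748 normalized counts in EV and 6948, 7541 and 6995 in shCHROME. The groups overlapped, and the log2 fold change was -0.05 (95% interval -0.17 to 0.07). EPHA2, a receptor that many carcinomas express, had 0.14 (-0.005 to 0.287). EPHA1 came nearest to a call, with 665.6, 698.4 and 768.7 normalized counts in EV and 777.1, 937.7 and 850.4 in shCHROME. Its groups did not overlap, and its log2 fold change of 0.26 had a limma adjusted p of 0.0649, which passed without shCHROME replicate a (0.0223). EPHA10 had -0.23 (-0.73 to 0.26), and the other 10 EPH receptors had 1 to 36 reads.

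EFNA1, the ligand of EPHA2, had 6416, 6469 and 6316 normalized counts in EV and 6320, 6514 and 6339 in shCHROME. The 6 libraries lay close together with the groups mixed, and the interval of the log2 fold change was -0.11 to 0.11. EFNA4 was lower in all shCHROME libraries (291.3 to 295.7) than in all EV libraries (322.2 to 345.5), with a log2 fold change of -0.20 (limma adjusted p = 0.257). EFNA3 had 69.13, 74.04 and 70.69 normalized counts in EV and 33.63, 79.61 and 42.52 in shCHROME. Its replicate b stood above all EV libraries and its other replicates below them, and without shCHROME replicate b it was called lower (log2 fold change -0.90, limma adjusted p = 0.0245). EFNA2, EFNB1 and EFNB2 had log2 fold changes of -0.09, 0.14 and -0.30, and EFNA5 and EFNB3 had 2 and 3 reads. EFNA3 and EFNA4 share exons with AL691442.1 in the annotation, so reads of the shared parts are uncertain.

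**Figure D3:**
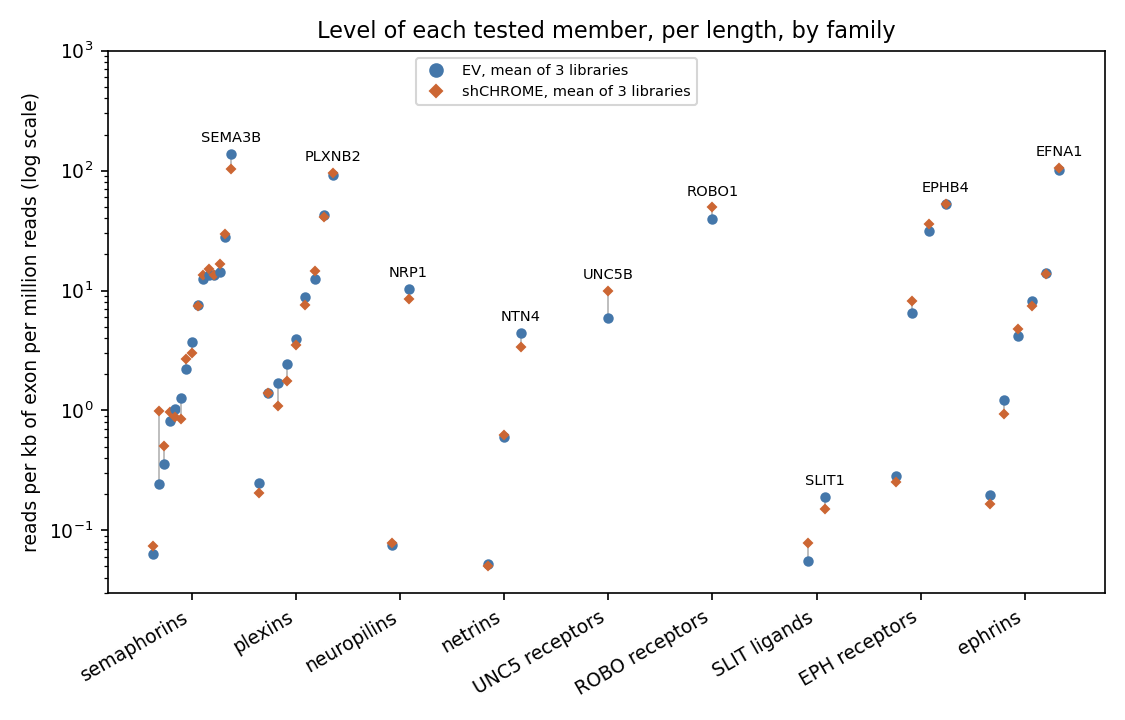
Level of each tested member in reads per kilobase of exon, scaled to reads in the library (y axis, log scale), by family, as the mean of the 3 EV libraries (blue circles) and of the 3 shCHROME libraries (orange diamonds), with the highest member of each family named. SEMA3B (138 in EV), EFNA1 (102) and PLXNB2 (92.1) were the highest, and SEMA3A moved from 0.242 to 0.985.

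Levels per length put ligands and receptors on 1 scale. In EV the highest were SEMA3B at 138 ± 0.94, EFNA1 at 102, PLXNB2 at 92.1, EPHB4 at 52.7, PLXNB1 at 42.7 and ROBO1 at 39.7 RPKM, which is reads scaled to exon length and to the reads of the library (n = 3). By this level SEMA3A lay at 0.242 in EV and 0.985 in shCHROME, below SEMA3G (13.4 and 15.2) and SEMA3F (12.6 and 13.5) in both groups. NRP1 had a level of 10.4 in EV and 8.53 in shCHROME, and UNC5B one of 5.86 and 9.92. These levels rest on library totals, while the normalized counts and the tests rest on the authors' size factors. In the test, scaling to library totals moved the median log2 fold change over all tested genes by 0.049. Differences between the groups in these levels carry that shift. The SLIT ligands summed to 0.254 in EV, against 39.7 for the ROBO receptors.

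Over the whole set, the summed normalized count of the 68 members was 102631 ± 3113 in EV and 99884 ± 5458 in shCHROME (SD, n = 3 per group, exact two-sided permutation p = 0.5). The summed count of all semaphorins was 28263 to 29640 in the EV libraries and 23679 to 27802 in the shCHROME libraries. There was no overlap (exact two-sided permutation p = 0.1). Their sums per length overlapped (exact two-sided permutation p = 0.2), but these were also scaled to library totals in place of size factors. Whether the length or the scaling brought the overlap was not tested. SEMA3B alone went from a mean of 14876 to 10795, while the semaphorin sum went from 28887 to 25235. The summed counts of neuropilins, netrins and class 3 semaphorins were lower, and those of UNC5 and ROBO receptors higher, in each shCHROME library than in any EV library, with the smallest p this design allows, 0.1. Most of each of these sums came from a called gene, namely NRP1, NTN4, SEMA3B, UNC5B and ROBO1 in turn. In EV, NRP1 held 3648 of 3673 neuropilin counts and NTN4 525.7 of 575.4 netrin counts. The EPH receptors, ephrins, plexins and SLIT ligands had sums that overlapped between the groups.

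Co-receptors and signalling partners of these families were taken as a list of textbook genes, of which 88 are in the table, DRAXIN not being analysed here, and 79 were tested. Of these, 3 rose, 6 fell and 70 did not pass the test, or 11.4% called against the 10.5% of all tested genes, with a median log2 fold change of 0.04. With libraries scaled to their totals 10 rose, and 1 rose without EV replicate b, without EV replicate c or without shCHROME replicate b. L1CAM, an adhesion molecule that joins neuropilin-1 in the SEMA3A receptor, had 1165 ± 130 normalized counts in EV and fell to 824.2 ± 19.5 (SD, 3 libraries each, adjusted p by limma = 0.000771). ERBB2, a kinase that associates with B-type plexins, rose 1.16-fold (limma adjusted p = 0.0326). It did not pass in 4 of 16 alternatives, with an adjusted p of at most 0.143, namely the replicate block and leaving out EV replicate b, EV replicate c or replicate b of shCHROME.

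In the SLIT list, SDC1, a heparan sulfate proteoglycan of the kind that SLIT proteins bind, fell 1.24-fold, and VASP, an actin regulator, fell 1.35-fold (limma adjusted p = 0.00224 and 0.000983). FLRT3, a membrane protein that binds UNC5 receptors and ROBO1, had 9.872 ± 3.08 normalized counts in EV and rose to 27.4 ± 10.2 (SD, 3 libraries each, adjusted p by limma = 0.0281). Leaving out EV replicate b, EV replicate c, or replicate a or b of shCHROME ended that call (adjusted p up to 0.13). In the ephrin list, the exchange factor genes NGEF, known for its action below EPHA4, and TIAM1 fell 1.42-fold and 2.03-fold, and RGS3, which can bind B-type ephrins, fell 1.33-fold, while the exchange factor gene VAV3 rose 1.39-fold. The adjusted p of these was 0.000465, 0.0295, 0.00209 and 0.003, by limma. TIAM1 did not pass in 5 of 16 alternatives, with at most 0.131, namely without the filter and without EV replicate b, EV replicate c, or replicate a or c of shCHROME. None of 11 tested partners of netrin signalling and none of 13 cytoskeleton effectors was called by limma, against 10.5% of all tested genes. ROCK2, ARHGEF12 and ABLIM1, the most abundant genes of the whole list by normalized count, had log2 fold changes of -0.07, -0.15 and -0.09.

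Markers of other cell types were examined because vessel, stromal and nerve cells also use these genes. The libraries are all labelled as the HepG2 line, so these values are levels in that culture and not numbers of such cells. Of 8 endothelial markers 4 were tested and none was called. Their summed level was 1352 to 1376 normalized counts in EV and 1225 to 1242 in shCHROME, most of it VWF, then ESAM and PECAM1, and TEK was at 0. Of 8 stellate or fibroblast markers, PDGFRB fell 1.98-fold (limma adjusted p = 0.000257), and ACTA2, RGS5 and LRAT did not pass the test. COL1A1, COL3A1 and DES had 1, 3 and 3 reads, and DCN was at 0. The sums were 1741 to 1942 in EV and 1606 to 1916 in shCHROME. Of 8 neuronal markers 3 were tested and none was called (SYP, GAP43 and ELAVL3 leading), ELAVL4 and STMN2 were at 0, and the sums were 505.1 to 693.8 in EV and 520.9 to 726.8 in shCHROME. Of 5 blood markers LYZ rose 1.22-fold, CD68 and CD14 did not pass the test, PTPRC had 3 reads and HBB was at 0. The sums were 5119 to 5177 in EV and 5587 to 7104 in shCHROME, most of it LYZ (means 4779 and 5887). Omitting EV replicate c, or replicate a or c of shCHROME, ended the call of LYZ (limma adjusted p at most 0.0613). Of 8 markers of the HEK293 packaging line, CDH2 fell 1.17-fold, SALL1 did not pass the test and NEFL and NEFM were at 0. Omitting EV replicate a, EV replicate c, or replicate c of shCHROME ended the call of CDH2 (limma adjusted p at most 0.088). The part of these levels, and of the falling hepatocyte markers, in the members' changes was not tested.

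Promoters, from 250 bases before to 50 after the gene start (RefSeq, GRCh38.p14), were matched by symbol for 58 of the 68 members. The called members SEMA3A, UNC5B and NRP1 were among those without a match. The promoters of PLXNA2, the plexin that fell most, and of ROBO1, the only member that rose and was matched, are printed. They are examples of different starts and do not describe the called members as a set. The capitals mark the GC box (GGGCGG) and the CCAAT box (CCAAT), searched on both strands.
PLXNA2, chr1:208244335-208244634, minus strand: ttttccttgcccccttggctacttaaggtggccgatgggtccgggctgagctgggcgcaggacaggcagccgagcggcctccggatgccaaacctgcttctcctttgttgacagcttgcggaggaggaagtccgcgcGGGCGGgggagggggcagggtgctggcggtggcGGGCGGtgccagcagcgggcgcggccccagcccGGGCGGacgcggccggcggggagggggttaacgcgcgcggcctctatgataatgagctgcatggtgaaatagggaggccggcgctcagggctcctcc
ROBO1, chr3:79767949-79768248, minus strand: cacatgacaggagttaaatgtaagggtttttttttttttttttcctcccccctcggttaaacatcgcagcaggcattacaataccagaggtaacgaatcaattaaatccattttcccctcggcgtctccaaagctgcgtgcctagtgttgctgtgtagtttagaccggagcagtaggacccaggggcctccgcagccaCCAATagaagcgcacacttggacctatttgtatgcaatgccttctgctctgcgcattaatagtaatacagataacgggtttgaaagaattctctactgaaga
PLXNA2 held 3 GC boxes, no CCAAT box and 29 CG pairs, and ROBO1 held no GC box, 1 CCAAT box and 11 CG pairs, where the median over all 300-base promoters of the table was 14. The GC box was present in 30 of 35 tested members with a promoter and in 45.0% of all 35116 promoters, and the CCAAT box in 13 of 35 and in 34.6%. The TATA box (TATAAA) was present in 1 of 35 and in 11.5%, the E-box (CACGTG) in 1 and in 7.26%, the AP-1 element (TGACTCA) in none and in 4.95%, and the cAMP response element (TGACGTCA) in 2 and in 1.85%. The 35116 promoters were taken whether or not the gene was tested, and no share or CG median over tested genes was worked out. They are therefore not a matched background for the 35 members. The AP-1 and cAMP motifs share their opening TGAC, and a missing match says only that these letters are not in this window.

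**Figure D4:**
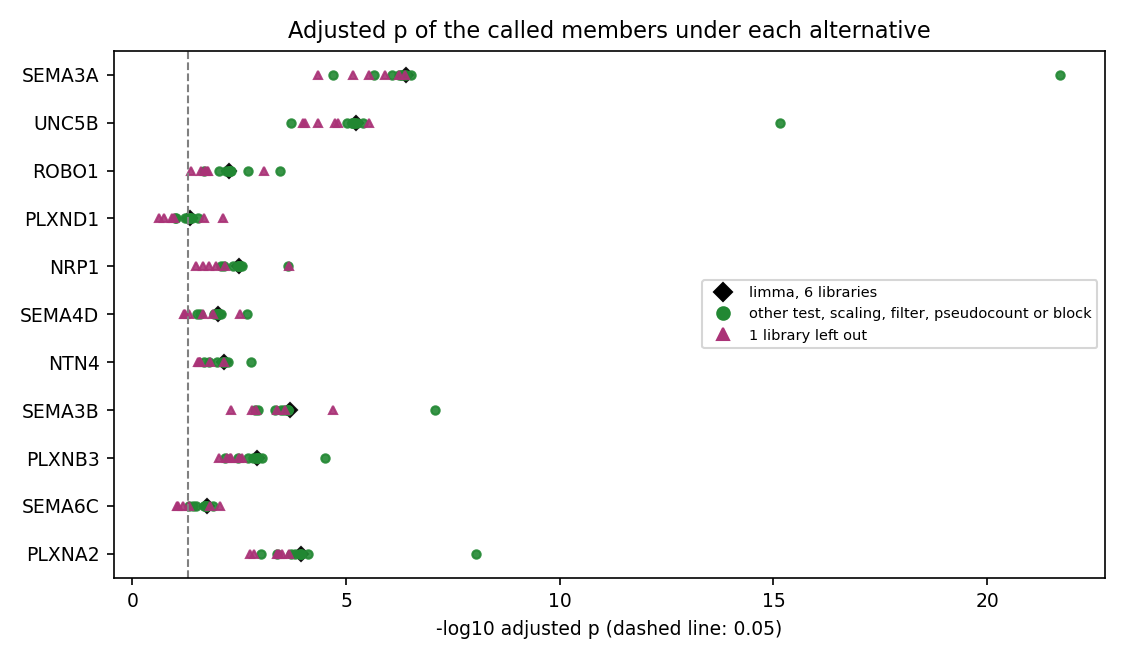
Adjusted p of the 11 called members as -log10 (x axis, dashed line at 0.05) for limma on the 6 libraries (black diamonds), for another test, scaling, filter, pseudocount or block (green circles) and with 1 library left out (purple triangles). PLXND1, SEMA6C and SEMA4D have points left of the line, and the other 8 genes have none.

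Of the 11 calls, 8 held under all 16 alternatives, namely SEMA3A, SEMA3B, PLXNA2, PLXNB3, NRP1, NTN4, UNC5B and ROBO1. The calls of PLXND1, SEMA6C and SEMA4D were lost under 8, 3 and 2 of them.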

How the data were processed

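HepG2 total RNA gave 3 EV and 3 shCHROME libraries, grouped by title (paired-end reads, TruSeq kit, per the labels' protocols). The tools were STAR 2.5, featureCounts 1.5.2 and DESeq2, whose version is listed as 3.4, and the build was hg19, per the submitters' processing notes. The annotation and strand setting of the counting are not given in the sources used here. The authors deposited 1 table with a normalized signal per gene and library, read counts divided by a size factor, and with their own mean signal, log2 fold change and p-values, raw and adjusted. Of 24656 lines, 1288 repeats were removed. The 28 date-like symbols were looked up by identifier, and those without a match kept the date joined to the identifier.

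The values were whole multiples of 1 read within 0.01 reads for 100% of genes, so reads were recovered. Filtering used filterByExpr of edgeR 4.0.16 on these reads, and log2(value + 1) was tested over all genes in limma 3.58.1 (eBayes with a trend, no covariates). Fold changes are on that scale, which understates changes of low genes. The alternatives were edgeR quasi-likelihood and DESeq2 1.42.0 on the recovered reads, other scalings (DESeq2 size factors, TMM, upper quartile, library totals), a pseudocount of 0.1, other filters, blocking on the replicate letter, and omission of each library in turn. Levels per length used merged exon lengths of GENCODE release 29, found by identifier, without coordinates, for every member except EPHB6. No 2 replicates agreed within sampling noise (chi-square per degree of freedom 5.72 to 17.04).

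The members and lists were chosen with earlier results of these data known. Described library by library were all called members and the most abundant of each family; from the list of partners, the called genes (up to 5 per direction, 1 more being given) and the 3 most abundant. For the packaging line, 1 marker and the summed level that includes it are not reported here.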

Additional observations from a re-analysis of the deposited data

Results flagged for a closer look

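The deposited table gives a mean per gene that was not taken over these 6 libraries alone: it differed by over 1% from their mean in 28 of the 33 members with a mean of at least 100. For 2 of these the deposited mean lay above each of the 6 libraries, so it holds signal outside the compared columns. For PLXNC1 it was 412 against a highest library of 378.4 normalized counts, and for SEMA3F it was 1781 against 1768.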

How the results depend on the processing

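Over the 16 alternatives, the log2 fold changes of the 11 called members and of PLXNB2, SLIT1, EPHB4 and EFNA1 gave 240 values, of which 220 kept their direction and their side of the threshold, 13 lost the call (PLXND1, SEMA6C and SEMA4D) and 7 changed sign. The 7 belong to 2 uncalled members near 0. EFNA1 (-0.002) was at 0.004 with upper-quartile scaling, 0.047 with library totals, 0.006 without EV replicate b or shCHROME replicate a and 0.004 without shCHROME replicate c, and its values with 1 library left out ran from -0.016 to 0.006. PLXNB2 (0.003) was at -0.048 without EV replicate b and -0.047 without shCHROME replicate b, within a range of -0.048 to 0.036. The cause of these sign changes was not tested. With library totals, 5 members, 936 of all genes and 10 partner genes were called higher, and lower genes were 42.9% of all calls in place of 65.3%; the cause was not tested. Leaving out 1 library gave 3 to 5 higher and 5 to 9 lower members, 245 to 528 higher and 599 to 1051 lower genes in all, and 1 to 4 higher partner genes, from fewer libraries. The replicate letters do not pair the libraries by any label, and the deviations of same-letter libraries correlated at -0.05, -0.09 and 0.04, with EV replicate b nearest to shCHROME replicate a (0.13). With the replicate block, 349 genes were higher in place of 532, and of the member calls only that of PLXND1 was lost. The edgeR test and DESeq2 on recovered reads called the same 11 members. Depth limits the 25 untested members and, among the tested ones, NTN1, SLIT3 and NRP2, whose intervals are the widest.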

Other observations

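Several members lie beside each other on the chromosomes without sharing a level. In the gene order of GENCODE release 29, SEMA3A on chromosome 7 stands between SEMA3E and SEMA3D with no other protein-coding gene between them. SEMA3A had 963 reads over the 6 libraries, SEMA3E 19 and SEMA3D 2. ROBO1 stands beside ROBO2 on chromosome 3, with 66170 reads against 1. SEMA3B and SEMA3F, on chromosome 3, have 3 protein-coding genes between them, and their log2 fold changes were -0.47 (95% interval -0.61 to -0.33) and 0.05 (-0.08 to 0.19). NTN4 and PLXNC1, on chromosome 12 with 8 such genes between them, had log2 fold changes of -0.43 and -0.05. These pairs were picked out after their values were seen, and the differences within them were not tested.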
